A study of Mus musculus with 8 samples.

Results

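Laminins are the cross-shaped glycoproteins of basement membranes, the sheets of matrix in which pericytes lie embedded together with the endothelium. Each laminin is a trimer of an α, a β and a γ chain that join through a coiled coil inside the cell before secretion, and the trimer is named by its chain numbers, so that laminin-411 holds α4, β1 and γ1. The large C-terminal domain of the α chain binds integrins and dystroglycan on the cell surface, while the short arms link the trimers into a network. The α4 and α5 chains are the typical α chains of the endothelial basement membrane, and α1 and α2 are found in the outer, parenchymal basement membrane around brain vessels.

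The 9 genes described here encode 5 α chains (*Lama1* to *Lama5*), 3 β chains (*Lamb1* to *Lamb3*) and the γ1 chain (*Lamc1*). They were taken by symbol from the 54532 gene identifiers of the count tables, and all 9 were among the 22544 genes tested. The tables come from primary pericyte cultures of wild-type (WT) mouse brain, sampled after 48 h with vehicle (cultures 1 to 4) or with TGF-β1 at 5 μg per mL (cultures 5 to 8). TGF-β1 is a secreted cytokine that signals through Smad transcription factors and regulates many matrix genes. The cells had been expanded over several passages on collagen I-coated plates in medium with serum. The methods describe neither the addition nor the removal of endothelial cells. The methods describe isolates that received both treatments, whereas the labels give no number shared between the groups, and the groups of 4 cultures were therefore tested without pairing. Values are given as CPM, the counts scaled to a common library total with TMM normalization, and changes come from edgeR's quasi-likelihood test with Benjamini-Hochberg adjustment over all genes tested.

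Each culture had between 45255235 and 47651397 counts, at which 3 counts correspond to at most 0.0658 CPM. Even numbers made up 68.5% to 70.2% of the counts from 1 to 20, a surplus over odd numbers for which the sources used here give no reason. Of 8 genes commonly regulated by TGF-β, 7 were higher and 1 was lower in the TGF-β1 cultures (edgeR adjusted p under 0.05). Over all genes tested, 20.9% were called higher and 20.3% lower. The 8 genes were listed with earlier results of these data known, so their count is a description only. The matricellular gene *Ccn2* went from 228.5 ± 19.0 to 491.3 ± 26.8 CPM (SD, n = 4 each). The lower gene was *Tgfbi*, which went from 230.0 ± 4.78 to 81.2 ± 10.3 CPM (log2 fold change -1.50). The pericyte label held only in part. *Pdgfrb*, *Cspg4*, *Cd248* and *Notch3* were present at 82.9 to 202 CPM with vehicle, whereas *Kcnj8*, *Abcc9* and *Vtn*, which mark brain pericytes in tissue, did not exceed 0.189 CPM in any culture. Of the 9 pericyte markers tested, 3 were higher with TGF-β1 (log2 fold change 1.03 for *Cspg4*, 0.53 for *Pdgfrb* and 0.20 for *Cd248*) and 3 were lower (-2.02 for *Rgs5*, -1.27 for *Atp13a5* and -0.43 for *Anpep*). Summed markers of other cell types ranged from 472.5 to 485.7 CPM with vehicle and from 475.5 to 500.8 CPM with TGF-β1 for 10 endothelial genes, mostly from *Cdh5* (375 and 367 CPM), while *Cldn5*, *Erg* and *Tie1* did not exceed 0.213 CPM in any culture. Of the 6 endothelial markers tested, 2 were higher with TGF-β1, *Flt1* (81.7 and 99.2 CPM, log2 fold change 0.28) and *Vwf* (1.27). *Tek* was lower (-0.45) and 3 were not called. Fibroblast markers (11 genes) summed to 4582 to 4809 CPM with vehicle and 6567 to 6844 CPM with TGF-β1, with the collagen genes *Col1a1*, *Col1a2* and *Col3a1* as the main part, whereas *Lum*, *Slc6a13* and *Aldh1a2* were near the limit of 3 counts. The sum was higher through these collagens, and 4 of the 8 fibroblast markers tested were lower with TGF-β1, namely *Scara5* (mean 68.8 and 5.53 CPM, log2 fold change -3.64), *Ptgds* (31.2 and 3.30 CPM, -3.24), *Dpt* (-0.82) and *Dcn* (-0.16). The sums of 6 astrocyte markers were 54.9 to 61.9 CPM and 40.7 to 45.7 CPM, with *Slc1a2* as the largest part (38.5 and 16.3 CPM) and *Aqp4* at 0 in every vehicle culture. Of the 5 astrocyte markers tested, 2 were higher with TGF-β1 (log2 fold change 0.77 for *Aldh1l1* and 0.64 for *Slc1a3*). Another 2 were lower (-1.55 for *S100b* and -1.24 for *Slc1a2*). The sums of 8 microglia and macrophage markers were 108.9 to 114.0 and 108.5 to 110.6 CPM, nearly all from *Tmem119* (102.4 and 98.5 CPM). *Ptprc*, *Cx3cr1*, *Aif1*, *P2ry12* and *Itgam* did not exceed 1.33 CPM in any culture. All 8 were tested, and *Csf1r* alone was called, as higher with TGF-β1 (mean 1.504 and 2.504 CPM, log2 fold change 0.73, edgeR adjusted p = 0.000222). *Cd68*, at a mean of 5.099 and 5.915 CPM, was not called. The sums of 6 epithelial markers were at most 1.03 and 1.38 CPM, and those of 5 oligodendrocyte markers at most 5.48 and 6.05 CPM. Called in either direction were 6 of 9 pericyte, 3 of 6 endothelial, 7 of 8 fibroblast and 4 of 5 astrocyte markers tested. For microglia and macrophage markers the count was 1 of 8, for oligodendrocyte markers 2 of 4 and for epithelial markers 0 of 1. The share over all genes tested was 41.3%, and whether these short lists differ from it was not tested. In bulk RNA, fewer cells of a type and less RNA per cell cannot be told apart, and the part of other cell types in the values below was not tested.

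All 9 chain genes passed the test, 5 higher and 4 lower with TGF-β1, where 41.3% of all genes tested were called, 20.9% as higher and 20.3% as lower. In all 9 the cultures of the groups did not overlap, which was the case for 37.9% of all genes tested. *Lama5*, *Lamb3*, *Lamb1*, *Lamc1* and *Lama2* were higher, and *Lama3*, *Lama1*, *Lama4* and *Lamb2* were lower. The direction was thus mixed within the α class and within the β class. The median log2 fold change was 0.12 over the 9 chains and -0.01 over all genes tested.

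**Figure D1:**
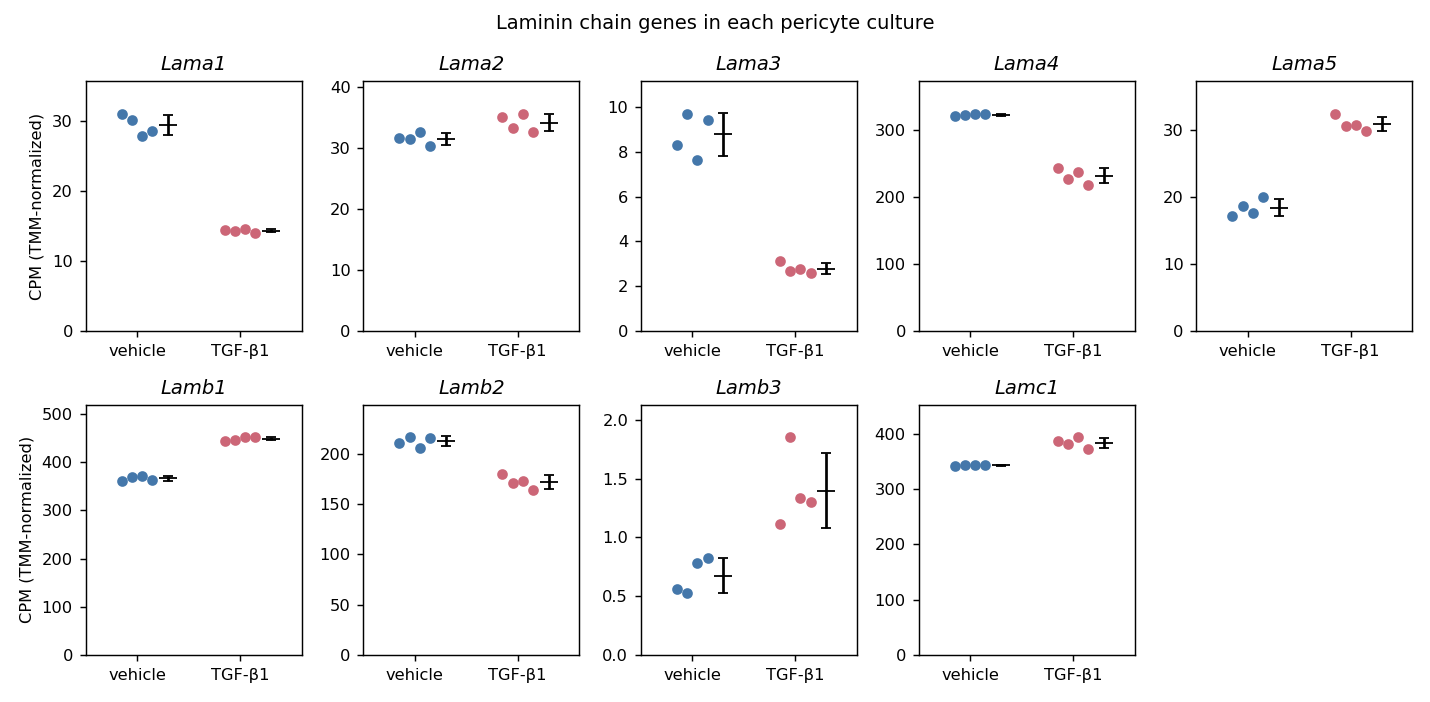
TMM-normalized CPM of the 9 laminin chain genes in the 4 vehicle cultures (blue) and the 4 TGF-β1 cultures (red), 1 point per culture, on linear axes that start at 0 and differ between panels; the bar beside the points is the mean and SD. No TGF-β1 culture lies within the range of the vehicle cultures in any panel, and *Lama3* shows the largest fall, from between 7.64 and 9.70 to between 2.58 and 3.12 CPM.

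Among the α chains, *Lama4* (ENSMUSG00000019846, chromosome 10, 38965515 to 39110188 of GRCm38) was by far the most abundant. It encodes α4, a chain with a shortened N-terminal arm that is made by endothelial and mural cells. Its level was 320.3, 322.2, 323.8 and 323.5 CPM in the vehicle cultures, and 243.5, 226.4, 237.2 and 218.0 CPM in the TGF-β1 cultures. The vehicle cultures were almost identical, with a coefficient of variation of 0.482%, and the TGF-β1 cultures spread over a wider range (4.88%), all below. The log2 fold change was -0.48 (standard error 0.03, edgeR adjusted p = 1.91e-19), a 1.39-fold lower level.

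*Lama1* (ENSMUSG00000032796, chromosome 17, 67697259 to 67822647) encodes α1, the α chain of the classical laminin of the early embryo, which meningeal cells also make in the adult. It was at 30.98, 30.14, 27.84 and 28.57 CPM with vehicle and at 14.42, 14.33, 14.60 and 13.96 CPM with TGF-β1. The treated cultures lay within a narrow range far below every vehicle culture. The level was 2.05-fold lower (log2 fold change -1.04, standard error 0.05, edgeR adjusted p = 1.35e-21), and 94.9% of all genes tested had a smaller absolute change.

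*Lama3* (ENSMUSG00000024421, chromosome 18, 12333819 to 12583013) encodes α3, the α chain of epithelial laminins. Its values were 8.31, 9.70, 7.64 and 9.42 CPM with vehicle, and 3.12, 2.68, 2.79 and 2.58 CPM with TGF-β1. This was the largest change of the 9 chains, a 3.14-fold lower level (log2 fold change -1.65, standard error 0.10, edgeR adjusted p = 3.57e-18), on 363 to 442 counts per vehicle culture and at most 143 per TGF-β1 culture. The short and the long form of α3 start at different promoters, and counts per gene do not separate them.

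*Lama5* (ENSMUSG00000015647, chromosome 2, 180176373 to 180225859), which encodes the widespread α5 chain, moved the other way. The vehicle cultures were at 17.21, 18.75, 17.70 and 20.08 CPM and the TGF-β1 cultures at 32.49, 30.69, 30.84 and 29.92 CPM. The lowest treated culture was thus well above the highest vehicle culture. The rise was 1.68-fold (log2 fold change 0.75, standard error 0.05, edgeR adjusted p = 4.81e-17). *Lama2* (ENSMUSG00000019899, chromosome 10, 26980036 to 27619758), the gene of the α chain of muscle and nerve basement membranes, was close to its control level, at 31.70, 31.52, 32.60 and 30.31 CPM with vehicle and 35.13, 33.34, 35.68 and 32.73 CPM with TGF-β1. The lowest treated culture exceeded the highest vehicle culture by little. The log2 fold change was 0.12 (standard error 0.04, edgeR adjusted p = 0.0201), and the call did not hold without TGF-β1 culture 7 (adjusted p = 0.107), vehicle culture 4 (0.0840) or TGF-β1 culture 5 (0.0699).

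The exons of *Lama2* overlap a gene on the other strand over 3.86% of their length and those of *Lama3* over 1.83%. For the other 7 chains no exon of another gene overlaps in GENCODE M21. The strand setting of the counting is not given in the sources used here.

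The main β chains moved in opposite directions. *Lamb1* (ENSMUSG00000002900, chromosome 12, 31265234 to 31329644) encodes the widely expressed β1 chain, and it went from 360.5, 369.7, 371.8 and 364.2 CPM with vehicle to 445.2, 446.8, 451.8 and 451.7 CPM with TGF-β1. The treated cultures lay within a narrow band (coefficient of variation 0.762%) above every vehicle culture. The log2 fold change was 0.29 (standard error 0.02, edgeR adjusted p = 2.79e-15). *Lamb2* (ENSMUSG00000052911, chromosome 9, 108479736 to 108490530) encodes β2, the β chain of the neuromuscular synapse, the kidney filter and many vessel walls. It went from 210.4, 216.2, 205.9 and 216.0 CPM to 179.6, 171.0, 172.9 and 163.5 CPM, so that each treated culture lay below each vehicle culture (log2 fold change -0.30, standard error 0.03, edgeR adjusted p = 2.49e-13). *Lamb3* (ENSMUSG00000026639, chromosome 1, 193207699 to 193343878), whose β3 chain is known from epithelia, was rare, with 24 to 38 counts per vehicle culture and 51 to 85 per TGF-β1 culture. It was at 0.564, 0.526, 0.779 and 0.823 CPM with vehicle and 1.11, 1.85, 1.33 and 1.30 CPM with TGF-β1 (log2 fold change 1.05, standard error 0.22, edgeR adjusted p = 0.000102). Culture 6 stood highest, and the coefficient of variation exceeded 22% in both groups.

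For 5 of the 9 chain genes RefSeq's promoter table for GRCm38.p6 holds a sequence. The bases before the start of *Lamb1*, *Lamb2* and *Lama5* are shown because these genes cover the opposite directions of the β chains and the largest rise among chains of more than 10 CPM. For *Lamb1* and *Lamb2* GENCODE places the start of the gene further upstream than RefSeq, and only the first 191 and 124 bases are shown. Each stretch ends before the first annotated transcribed base, is written 5′ to 3′ on the strand of the gene, and has GC boxes (GGGCGG or its reverse complement) in capitals.
Lamb1, + strand, chr12:31265043-31265233: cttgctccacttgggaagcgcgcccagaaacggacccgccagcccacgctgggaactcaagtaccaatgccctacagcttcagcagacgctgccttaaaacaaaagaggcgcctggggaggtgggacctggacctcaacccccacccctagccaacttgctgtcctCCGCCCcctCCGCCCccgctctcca
Lamb2, + strand, chr9:108479612-108479735: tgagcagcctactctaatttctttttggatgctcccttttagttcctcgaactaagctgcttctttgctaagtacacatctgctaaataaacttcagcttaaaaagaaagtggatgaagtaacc
Lama5, - strand, chr2:180225860-180226109: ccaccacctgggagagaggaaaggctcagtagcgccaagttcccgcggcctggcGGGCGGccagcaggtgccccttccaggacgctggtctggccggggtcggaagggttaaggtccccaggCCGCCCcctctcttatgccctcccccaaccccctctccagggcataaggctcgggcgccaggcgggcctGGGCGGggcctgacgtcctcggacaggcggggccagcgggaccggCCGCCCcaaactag

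Over the 250 bases before the RefSeq start, *Lama5* had 72.4% GC and 4 GC boxes, *Lamb1* 62.0% and 2, and *Lamb2* 43.6% and 0, where the median promoter had 52.4% GC and 32.7% of the 32851 promoters held at least 1 GC box. The Smad box CAGAC, read on both strands, occurred 1 time before *Lama5* and *Lamb1* and 2 times before *Lamb2*, there downstream of the stretch shown, and 42.2% of all promoters held it. The palindromic Smad site GTCTAGAC and the AP-1 site TGANTCA, held by 0.167% and 6.75% of all promoters, were in none of the windows. *Lama2* and *Lamb3*, the other chains in the table, had no GC box. These letters describe the windows and say nothing about binding.

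The γ1 chain is shared by most laminins. *Lamc1* (ENSMUSG00000026478, chromosome 1, 153218922 to 153332786) encodes γ1, without which most trimers cannot form. Its level was 340.9, 343.4, 342.9 and 343.6 CPM with vehicle and 387.4, 381.3, 393.2 and 371.8 CPM with TGF-β1. The lowest treated culture was above the highest vehicle culture, and the rise was small (log2 fold change 0.16, standard error 0.02, edgeR adjusted p = 7.77e-08), with 45.6% of genes tested showing a smaller absolute change. *Lamc3*, for γ3, is not among the 9. It had 14 to 39 counts per culture, and its groups overlapped (log2 fold change 0.43, standard error 0.30, edgeR adjusted p = 0.266).

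**Figure D2:**
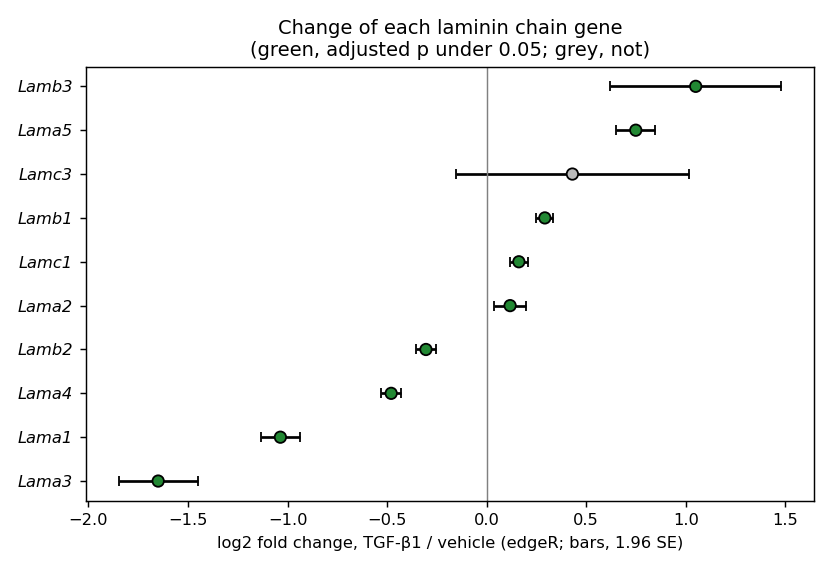
Log2 fold change of TGF-β1 over vehicle for the 9 laminin chain genes and *Lamc3*, from edgeR, with bars for the 95% confidence interval; green points had an adjusted p under 0.05 and the grey point did not. *Lama3*, *Lama1*, *Lama4* and *Lamb2* lie left of 0, and of the genes to the right the bar of *Lamc3* alone crosses 0.

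TGF-β1 culture 8 was the lowest of the treated cultures for 7 of the 9 chains, the exceptions being *Lamb1* and *Lamb3*, and this number was also 7 with library totals in place of TMM. The order of the cultures was not tested. Over the 8 cultures, the genes whose log2 CPM followed *Lama4* most closely were *Tgfbr2*, *Ifi27l2a* and *Tgfbi* (Pearson's r = 0.999, 0.999 and 0.999). The 3 closest to *Lamb1* were *Fam20c*, *Fnip2* and *Slc1a5* (r = 0.999, 0.998 and 0.998), and those closest to *Lamc1* were *Fads3*, *Chpf2* and *Sirpa* (r = 0.992, 0.992 and 0.991). The 8 points are shared by all genes and fall into the treatment groups, and 1482, 1510 and 651 of the 16487 genes compared had an r over 0.95 with *Lama4*, *Lamb1* and *Lamc1*.

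To compare the chains with each other, CPM was divided by the length of all annotated exons of the gene, in kb. On this scale *Lamc1* had the highest level with vehicle, at 41.4 ± 0.148 CPM per kb (SD, n = 4), followed by *Lamb1* at 37.0 ± 0.517, *Lamb2* at 34.9 ± 0.805 and *Lama4* at 26.7 ± 0.129. These 4 chains made up 94.9% of the summed level of the 9. *Lamc1*, *Lamb1*, *Lamb2* and *Lama4* exceeded 95.4%, 94.6%, 94.2% and 91.8% of 22536 tested genes. The next chain, *Lama1*, had a level 8.80 times below *Lama4*, at 3.04 ± 0.148 CPM per kb. *Lama2* (1.93 ± 0.0577), *Lama5* (1.62 ± 0.112), *Lama3* (0.816 ± 0.0895) and *Lamb3* (0.102 ± 0.0226) followed. With vehicle, none of these neighbours in the order overlapped over the cultures. The order depended on the length used. Per kb of the main coding transcript, *Lamb1* led with 63.4 CPM, before *Lama4* with 53.3, *Lamc1* with 44.96 and *Lamb2* with 37.7, and *Lama2* (3.28) stood above *Lama1* (3.09).

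With TGF-β1 the same 4 chains led, at 46.4 ± 1.11 CPM per kb for *Lamc1*, 45.3 ± 0.345 for *Lamb1*, 28.2 ± 1.09 for *Lamb2* and 19.2 ± 0.935 for *Lama4* (SD, n = 4 each). *Lamc1* and *Lamb1* now overlapped, while *Lamb1* and *Lamb2*, close together with vehicle, were 1.603-fold apart. The order of the minor α chains changed, with *Lama5* (2.72 ± 0.0951 CPM per kb) before *Lama2* (2.10 ± 0.0863) and *Lama1* (1.48 ± 0.0279), none of which overlapped. With the coding transcript *Lama2* (3.56) was above *Lama5* (2.72) and *Lama1* (1.504). *Lama3* (0.260 ± 0.0220) and *Lamb3* (0.212 ± 0.0479) overlapped at the end of the order. The summed level of the 9 chains was 147.5 ± 1.14 CPM per kb with vehicle and 145.8 ± 3.03 with TGF-β1, and the groups overlapped.

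Within the α class, *Lama4* gave 78.3% ± 0.479 of the summed α level with vehicle and 74.5% ± 0.325 with TGF-β1 (SD, n = 4 each). The share of *Lama5* went from 4.74% ± 0.307 to 10.6% ± 0.210, and that of *Lama1* from 8.90% ± 0.436 to 5.76% ± 0.174. The ratio of *Lama4* to *Lama5* was thus between 15.2 and 17.6 in the vehicle cultures and between 6.88 and 7.26 in the TGF-β1 cultures. Within the β class, *Lamb1* gave 51.4% ± 0.741 with vehicle and 61.4% ± 1.04 with TGF-β1. The ratio of *Lamb1* to *Lamb2* was 1.05, 1.05, 1.11 and 1.03 in the vehicle cultures and 1.52, 1.603, 1.603 and 1.695 in the TGF-β1 cultures. The values of the groups did not overlap for any of these shares and ratios, which were given no test because they are computed over chosen genes.

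**Figure D3:**
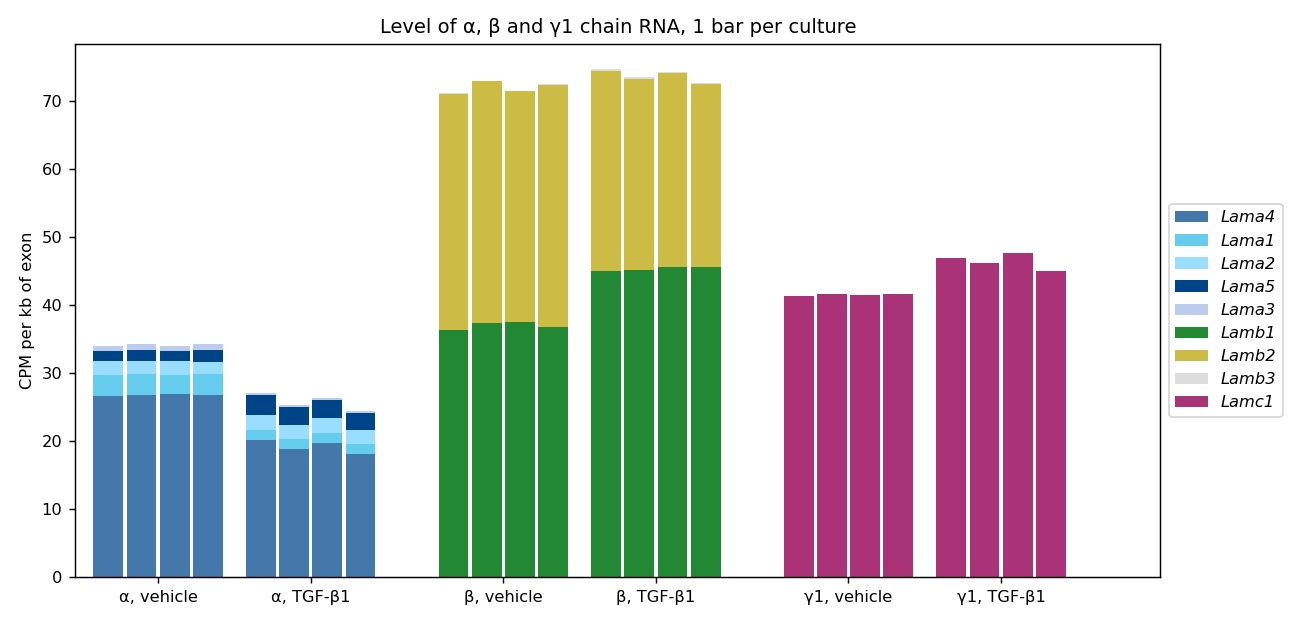
Level of the laminin chain genes in CPM per kb of exon, stacked by α and β class and for γ1, with 1 bar per culture and an axis that starts at 0; in each class the first 4 bars are the vehicle cultures 1 to 4 and the next 4 the TGF-β1 cultures 5 to 8. The α bars are lower in every TGF-β1 culture (24.4 to 27.0 against 34.0 to 34.3), the γ1 bars higher (44.9 to 47.5 against 41.2 to 41.5), and the β bars of similar height but with a larger share of *Lamb1*.

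The summed α level was 33.97, 34.29, 33.96 and 34.25 CPM per kb with vehicle and 26.96, 25.23, 26.31 and 24.38 with TGF-β1. The γ1 level moved the other way, from between 41.2 and 41.5 to between 44.9 and 47.5 CPM per kb, and the β sums, from 71.0 to 72.9 and from 72.6 to 74.6, overlapped. The ratio of α to γ1 RNA was thus 0.824 ± 0.00295 with vehicle and 0.555 ± 0.0146 with TGF-β1, and the ratio of β to γ1 RNA 1.74 ± 0.0156 and 1.59 ± 0.0227 (SD, n = 4 each). These ratios depend on the length assigned to each gene. The annotated exons of *Lama4* span 12068 bases in all, but its main coding transcript only 6046. With the length of the coding transcript the ratio of α to γ1 was 1.38 with vehicle and 0.920 with TGF-β1. The fall by treatment therefore held with either length, whereas whether α or γ1 RNA was in excess with vehicle did not.

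Each trimer needs 1 chain of each class, so the lowest of its 3 chain levels limits how much of it the RNA would allow. This limit assumes equal translation and stability, and all 3 chains made in the same cells, which the counts do not show. All 10 trimers considered, each with γ1, had more than 3 counts for each of their chains in every culture, so that none was without RNA for a chain. Per kb of exon, the α chain was the lowest chain in all of these trimers. The limit for laminin-411 and laminin-421, both set by *Lama4*, was 26.7 ± 0.129 CPM per kb with vehicle and 19.2 ± 0.935 with TGF-β1 (SD, n = 4 each). Those trimers share *Lama4*, and their limits cannot be added. All 10 trimers also draw on *Lamc1*, and those with the same β chain on that chain, so no limit is independent of the others. With the length of the coding transcript the lowest chain of laminin-411 was *Lamc1* with vehicle (44.96 CPM per kb) and *Lama4* with TGF-β1 (38.3), and that of laminin-421 was *Lamb2* in both groups (37.7 and 30.5).

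The limits of the other trimers were at least 8.80 times lower with vehicle. For laminin-111 and laminin-121, set by *Lama1*, the limit was 3.20, 3.11, 2.88 and 2.95 CPM per kb in the vehicle cultures and 1.49, 1.48, 1.51 and 1.44 in the TGF-β1 cultures. For laminin-511 and laminin-521, set by *Lama5*, it was 1.51, 1.65, 1.55 and 1.76 with vehicle and 2.85, 2.695, 2.71 and 2.63 with TGF-β1. The α1 and α5 trimers thus changed places, with α1 above α5 in every vehicle culture and below it in every TGF-β1 culture, and the means had the same order with each length tried. The limit of laminin-211 and laminin-221, set by *Lama2*, was 1.93 ± 0.0577 and 2.10 ± 0.0863, and that of laminin-311 and laminin-321, set by *Lama3*, 0.816 ± 0.0895 and 0.260 ± 0.0220.

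In total, the limit was lower in every TGF-β1 culture than in every vehicle culture for 6 of the 10 trimers and higher for 4. Since trimers with the same α chain had the same limit, these are the levels of the 5 α chains, 3 lower and 2 higher, and 37.9% of all genes tested had groups that did not overlap. For *Lama2*, 1 of the 2 higher chains, the groups were barely apart. Its highest vehicle level was 1.995 and its lowest TGF-β1 level 2.003 CPM per kb, and its call depended on single cultures.

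**Figure D4:**
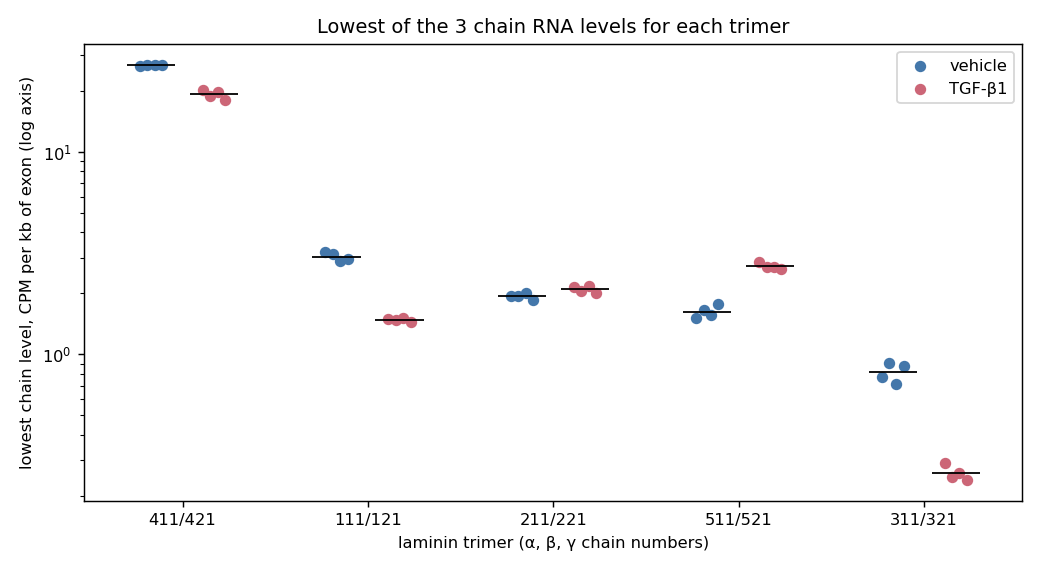
Lowest of the 3 chain levels of each laminin trimer, in CPM per kb of exon on a log axis, with 1 point per culture (vehicle blue, TGF-β1 red) and lines at the means; trimers that share their lowest chain are drawn together. The limit for laminin-411 and laminin-421 is the highest in both groups, and those for the *Lama1* and the *Lama5* trimers exchange their order.

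Cells hold laminin through integrins, dystroglycan and other receptors. Of 14 genes of laminin receptors, 9 were higher, 2 were lower and 3 were not called with TGF-β1, with a median log2 fold change of 0.39. The share called was 78.6%, beside 41.3% of all genes tested. The most abundant per length was *Itgb1*, the β1 subunit shared by most laminin-binding integrins, which rose from 832 ± 17.5 to 1132 ± 24.4 CPM (SD, n = 4 each; log2 fold change 0.44, edgeR adjusted p = 1.81e-21). The largest change was in *Itga2*, the α2 subunit of a collagen and laminin receptor, from 9.62 ± 0.635 to 29.8 ± 3.07 CPM (log2 fold change 1.63, edgeR adjusted p = 5.26e-21). The adhesion molecule gene *Mcam* was higher by 0.94 on the log2 scale, *Itga7*, for a laminin-binding integrin subunit of muscle, by 0.68, and *Adgrg6*, for an adhesion receptor that binds laminin-211, by 0.63. *Sdc4*, a heparan sulfate proteoglycan of the surface, fell by 0.16 on the log2 scale. The other lower gene, the integrin gene *Itga1*, fell from 239.7 ± 2.25 to 186.5 ± 6.59 CPM (log2 fold change -0.36, edgeR adjusted p = 2.23e-16). *Itga1* was chosen after its values were seen. *Itga6*, for a subunit of the main laminin-binding integrins, rose by 0.20 (edgeR adjusted p = 1.67e-05), and *Dag1*, which encodes dystroglycan, was at 624 and 622 CPM (log2 fold change -0.00, standard error 0.02, edgeR adjusted p = 0.910); these last genes were chosen after their values were seen.

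Dystroglycan binds laminin through a sugar chain built by a set of glycosylation enzymes. Of 12 genes for these enzymes 3 were higher, none was lower and 9 were not called, and the median log2 fold change was 0.06. The share called, 25.0%, was below the 41.3% of all genes tested, and only 2 were called when vehicle culture 2 or 4 or any of the TGF-β1 cultures was left out. *Rxylt1*, for the enzyme that adds a xylose to the chain, changed most, from 38.8 ± 2.00 to 47.0 ± 0.821 CPM (SD, n = 4 each; log2 fold change 0.28, edgeR adjusted p = 5.98e-08). *Pomgnt2* and *B3galnt2*, for enzymes that build the core of the chain, were both higher by 0.15 on the log2 scale. *B4gat1*, the most abundant per length, had a log2 fold change of 0.05 (edgeR adjusted p = 0.269).

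In the basement membrane, laminin is joined by collagen IV, nidogens and heparan sulfate proteoglycans. Of 23 such partner genes, 8 were higher, 6 were lower and 9 were not called, with a median log2 fold change of -0.05. The share called was 60.9%, beside 41.3% of all genes tested. The matricellular gene *Sparc*, whose product binds collagen IV, was the most abundant per length and rose from 795 ± 20.5 to 1130 ± 19.3 CPM (SD, n = 4 each; log2 fold change 0.51, edgeR adjusted p = 2.30e-23). *Col4a1*, one of the main collagen IV chains, was 0.18 higher on the log2 scale, and *Tinagl1*, for a secreted basement membrane protein, by 0.87. *Col18a1*, the collagen XVIII proteoglycan, fell by 0.55, and *Frem1*, for a protein of the epidermal basement membrane, fell by 1.90 on the log2 scale, from 4.15 ± 0.423 to 1.11 ± 0.0740 CPM. The nidogens, which link laminin γ1 to collagen IV and were chosen after their values were seen, moved apart, with a log2 fold change of 0.32 for *Nid1* and -0.36 for *Nid2* (edgeR adjusted p = 2.00e-16 and 5.30e-11).

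Among 7 tested genes of other proteins with laminin-type domains, 3 were higher, none was lower and 4 were not called, with a median log2 fold change of 0.26. The share called, 42.9%, was close to the 41.3% of all genes tested. *Ntn4*, a netrin of basement membranes that binds laminin γ1 and interferes with the laminin network, rose from 15.7 ± 1.94 to 29.9 ± 0.587 CPM (SD, n = 4 each; log2 fold change 0.93, edgeR adjusted p = 4.50e-16). *Ntn1*, an axon guidance netrin and the most abundant of the list per length, was higher by 0.26 on the log2 scale. *Ntn5* was higher too (log2 fold change 1.48, edgeR adjusted p = 0.00489), at 0.119 and 0.336 CPM.

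**Figure D5:**
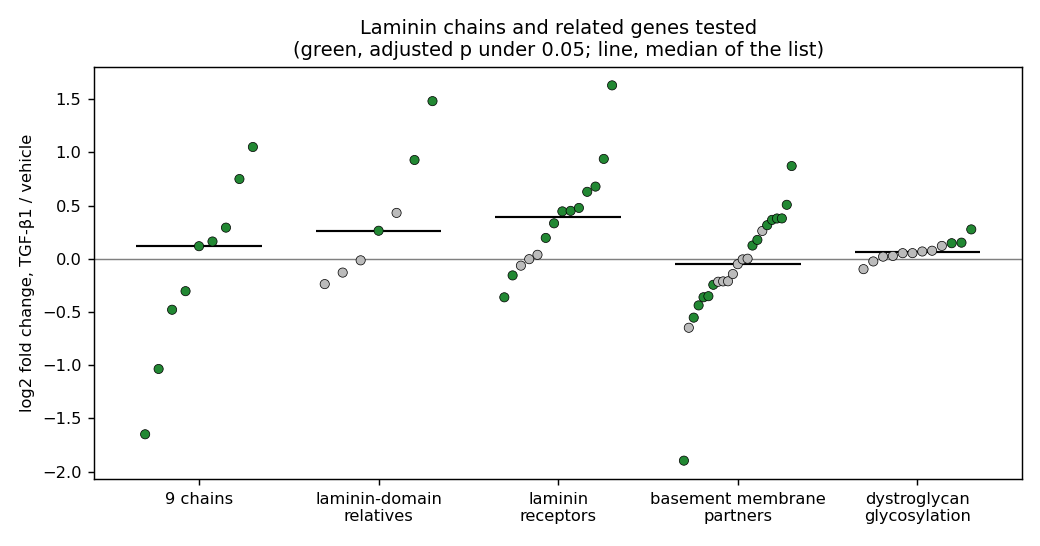
Log2 fold change of TGF-β1 over vehicle (edgeR) for the tested genes of the 9 laminin chains and 4 related lists, 1 point per gene, green where the adjusted p was under 0.05 and grey where it was not, with a line at the median of each list. The chains spread from -1.65 to 1.05, and the receptors have the highest median, 0.39.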

How the data were processed

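RNA-seq was performed on 8 mouse brain pericyte cultures, 4 per group. As the authors' methods and the submitters' processing notes give it, the authors aligned reads to mm10 with STAR 2.7.5c, took out duplicate reads (SAMtools 1.15) and summed reads over genes in featureCounts 2.0.3. The deposited values are raw counts. The strand setting and the annotation release are not given in the sources used here. Of 54532 identifiers, 54495 had an entry in GENCODE M21, which also gave exon lengths. Its assembly, GRCm38, is the same as mm10. Counts were analysed with edgeR 4.0.16 in R 4.3.3 (filterByExpr, TMM, robust quasi-likelihood test, threshold 0.05 after adjustment over 22544 genes). The standard error was the log2 fold change divided by the square root of F. The methods name 4 independent primary isolates. The labels do not say which isolate or animal each culture came from, so p-values measure the spread between these cultures. At 45255235 to 47651397 counts per culture, 3 counts equal 0.0631 to 0.0658 CPM.

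The members and lists were chosen with earlier results of these data known. Named genes were all chains, the 4 largest called changes and the 2 most abundant members of each related list, and the 3 genes closest to the main chain of each class. Marker genes were named after their values were seen, where they define a cell type, moved with treatment or carry most of a sum. Of the 8 genes listed as laminin-domain relatives, 7 were matched. Some genes and a trimer are not reported here and were left out of the lists and class sums. Alternatives were DESeq2 1.42.0, limma-voom (limma 3.58.1), other scalings, filters and gene lengths, halved counts and each culture left out. The code was tested on simulated data. No protein sequence was used here.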

Additional observations from a re-analysis of the deposited data

How the results depend on the processing

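Over 16 alternatives for each gene (tool, scaling, filter, halved counts and each culture left out), *Lama1*, *Lama3*, *Lama4*, *Lama5*, *Lamb1*, *Lamb2*, *Lamb3* and *Lamc1* kept their direction and their call. *Lama2* kept its direction, with a log2 fold change from 0.09 to 0.15, and lost the call with 3 of the cultures left out, the adjusted p reaching 0.107. With the length of the coding transcript in place of all exons, the ratio of α to γ1 RNA was 1.382 with vehicle and 0.9202 with TGF-β1, the ratio of β to γ1 2.251 and 2.156, the *Lama4* share of α 85.82% and 82.61%, and the *Lamb1* share of β 62.63% and 71.60%. With the coding length alone these were 0.9603 and 0.6375, 1.493 and 1.431, 86.70% and 83.70%, and 62.78% and 71.69%. The direction of the treatment difference was the same with each length. The values of *Lamb3* rest on 24 to 85 counts per culture. No paired analysis was possible because the labels number the vehicle cultures 1 to 4 and the TGF-β1 cultures 5 to 8, so that no number is shared.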
